A study of Mus musculus with 15 samples.

Results

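Islets of 12-week-old female NOD mice were compared with islets of 10-week-old NOD mice, the last interval before the end of the sampled time course. The comparison took the 3 mice labelled 12 weeks against the 3 labelled 10 weeks, 6 of the 15 mice of the series, which holds 3 mice at each of 5 ages (4, 6, 8, 10 and 12 weeks). By their labels all mice were of the NOD genotype. The study's methods give them as NOD/ShiLtJ females, and no treatment is named for them. No strain without autoimmunity served as control, so age was the only factor. The islets were isolated by collagenase perfusion of the pancreas, density gradient and hand-picking, and their polyA RNA was sequenced in bulk, so a lower number of cells of a type and less RNA per cell cannot be told apart. The NOD genotype and the islet tissue are shared by both groups, and the labels number the mice 1 to 3 within each age. The tests measure only the spread between single mice, which the main fit estimated over all 15 mice of the 5 ages.

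The NOD mouse develops autoimmune diabetes in which T cells, B cells and myeloid cells gather around and inside the islets, a process called insulitis. Blood endothelium that has turned into high endothelial venules lets lymphocytes enter an inflamed tissue, and reticular stromal cells that secrete chemokines such as Ccl19 and Ccl21a then hold them there, so that infiltrates can come to resemble a small lymph node. Plasma cells are the end stage of B cells: they secrete antibody, and their RNA is rich in immunoglobulin constant region transcripts, Jchain and the chaperones of the endoplasmic reticulum (ER). Beta cells, which secrete insulin, use many of the same ER chaperones.

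Gene counts came to 25407492, 37075834 and 28345260 in 10-week replicates 1 to 3 and to 28770801, 27921102 and 28004882 in 12-week replicates 1 to 3. A gene with 3 counts, the floor of what a count of 0 allows, corresponds to between 0.0753 and 0.109 CPM (counts scaled to the normalised library size) in these mice, and this floor covers counting error only. Of the 48709 genes of the annotation, 21993 had a count in at least 1 of the 6 mice and 16554 passed the filter on low counts and were tested. The endocrine markers stood where islets should have them: Ins2 was at 71810, 97490 and 103500 CPM at 10 weeks and at 89690, 102600 and 75860 CPM at 12 weeks.

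Leukocyte genes did not differ detectably between the ages. The mean log2 CPM of 22 leukocyte genes (T cell, B cell and myeloid markers and Ptprc, which encodes CD45) was 6.01, 5.64 and 4.82 in the 10-week mice and 5.65, 5.67 and 5.99 in the 12-week mice, or 5.49 ± 0.61 against 5.77 ± 0.19 (SD, n = 3 mice each). The groups overlapped, and the difference of 0.28 was smaller than the spread at 10 weeks. The same mean differed by 2.35 from 6 to 8 weeks and by 1.96 from 8 to 10 weeks (neighbouring intervals share the mice of the age between them). For Ptprc itself the levels were 444, 319 and 178 CPM at 10 weeks and 322, 317 and 414 CPM at 12 weeks, a fold change of 1.12 with a 95% interval from 0.340 to 3.67. This interval rests on the spread at all 5 ages, and at 4 weeks the SD of Ptprc (16.3 CPM) exceeded its mean (15.9 CPM). The precision therefore did not reach far enough to call the level equal, only to say that no difference was detected. Markers of neutrophils and mast cells were too low to test, with 0 of 7 genes past the filter and at most 11 counts in any of the 6 mice.

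**Figure D1:**
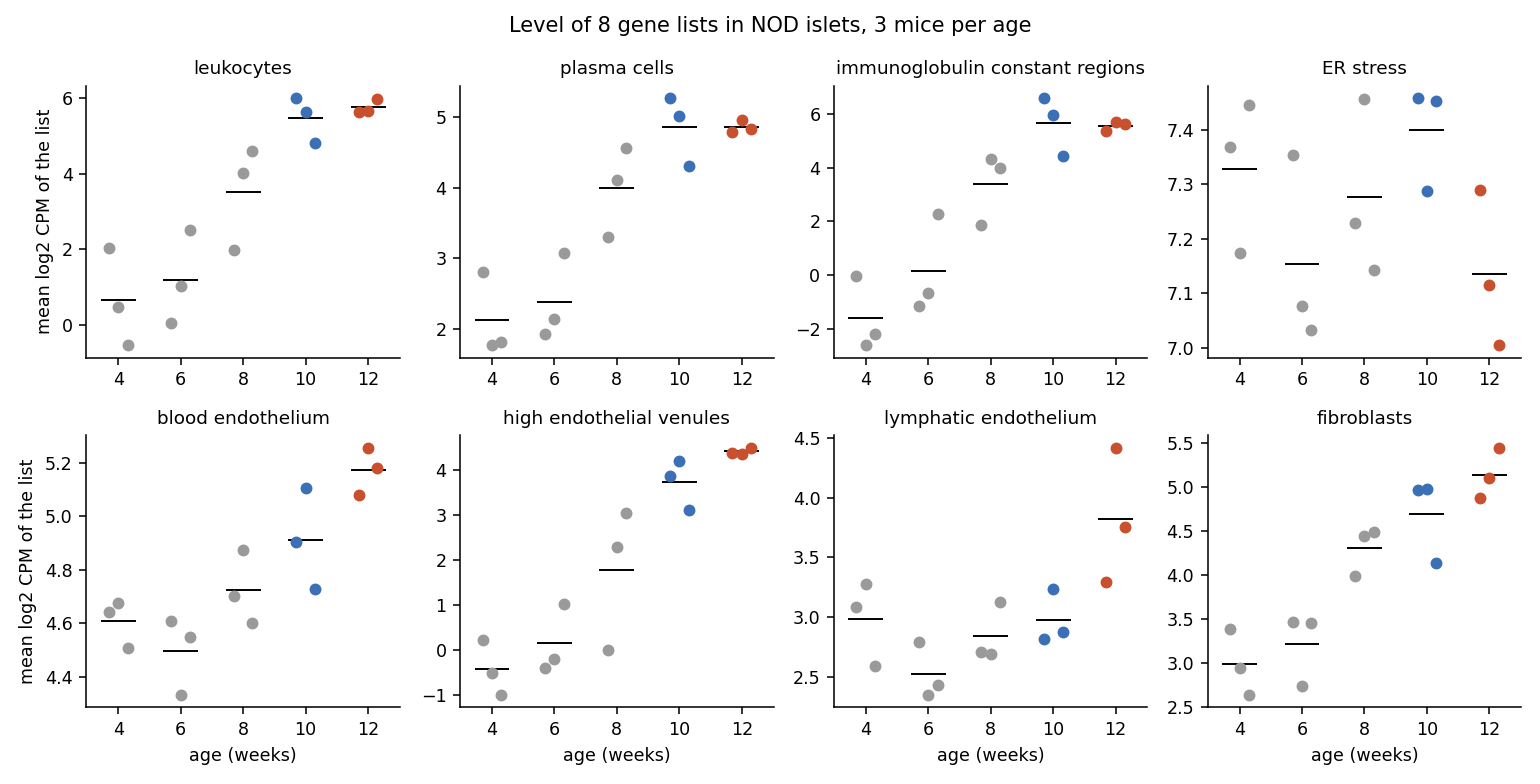
Mean log2 CPM of the tested genes of 8 lists (vertical axes, each with its own range) against age in weeks; points are single mice, 3 per age, and lines are means, with 10 weeks in blue, 12 weeks in red and the earlier ages in grey. The leukocyte, plasma cell and immunoglobulin levels of the 12-week mice lie within the range of the 10-week mice, while the lymphatic level of each 12-week mouse is above every 10-week mouse.

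Of the 6 libraries, 3 stood apart from the others in ways that touch the results. The 12-week replicate 1 library held intestinal epithelium transcripts: 16 intestinal genes too low elsewhere to be tested summed to 16480 counts in it, against 16, 25 and 14 in the 10-week mice and 26 and 23 in the other two 12-week mice. The 12-week replicate 2 library was high in genes of the lymph node sinus, with the sinus macrophage gene Siglec1 at 32.2 CPM against 1.43 to 3.65 CPM in the other 5 mice and the lectin gene Cd209b at 23.7 CPM against at most 0.778 CPM; these sinus genes were picked after their values were seen. The 10-week replicate 3 library was the lowest of the 6 mice in the leukocyte, plasma cell, high endothelial venule, fibroblast and collagen lists. What set these libraries apart was not tested.

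Few genes separated the ages. Differentially expressed genes (DEGs), defined here by a fold change of at least 1.5 and an unadjusted p under 0.05, numbered 359. Of these, 266 were higher at 12 weeks (1.61% of the 16554 tested) and 93 were lower (0.562%). No gene passed an adjusted p of 0.05 (0% of the genes tested; quasi-likelihood test of edgeR, Benjamini-Hochberg adjustment over all tested genes), and the smallest adjusted p was 0.244, for Angptl4 and Snx17. At an unadjusted p under 0.05 there were 1244 genes, where 828 are given by the threshold itself. On the same counts the exact test of edgeR called 7 genes at an adjusted p under 0.05 and DESeq2 called 12, of which 4 were called by both: Angptl4, Enpp2, Inhbb and Rnf182. The 3 mice of one age did not overlap the 3 of the other in 732 genes that were higher (4.42%) and 894 that were lower (5.4%), and among the DEGs this held for 215 of 359. An exact permutation test over 6 mice (two-sided, 20 splits) cannot go below p = 0.1 and so cannot reach 0.05 for any single gene. Full separation in either direction is expected in a share of 0.1 of genes without any age difference, close to the shares observed together.

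The firmest increase was that of Angptl4 (chromosome 17, 33773750 to 33781575, build mm10), a secreted inhibitor of lipoprotein lipase that is induced by fatty acids. Its level was 1.88, 1.31 and 1.76 CPM at 10 weeks and 7.55, 7.22 and 9.62 CPM at 12 weeks, so that every 12-week mouse was above every 10-week mouse. The log2 fold change was 2.30 ± 0.35 (SE), a 4.94-fold difference with a 95% interval from 2.93 to 8.31 and an adjusted p of 0.244. Angptl4 stood at 0.453, 1.32 and 3.81 CPM on average at 4, 6 and 8 weeks, so the 10-week level was below that at 8 weeks.

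Enpp2 (chromosome 15, 54838898 to 54920146) encodes autotaxin, the enzyme that makes lysophosphatidic acid. It was at 237, 252 and 225 CPM at 10 weeks and 431, 363 and 375 CPM at 12 weeks, so its log2 fold change was 0.71 ± 0.13 (SE). At 4, 6 and 8 weeks its mean was 223, 189 and 223 CPM, so the 12-week mice stood above all earlier means. Inhbb, the beta B subunit of activins and inhibins, went with 5.39, 5.55 and 3.79 CPM at 10 weeks and 8.75, 11.5 and 13.8 CPM at 12 weeks. Rnf182, an E3 ubiquitin ligase, was at 6.47, 6.28 and 9.80 CPM at 10 weeks and 19.8, 12.7 and 17.4 CPM at 12 weeks. At 4, 6 and 8 weeks the mean was 2.91, 4.07 and 7.11 CPM for Inhbb and 14.04, 10.8 and 11.6 CPM for Rnf182, so both were lower at 10 than at 8 weeks, and 12-week replicate 2 was below the 4-week mean of Rnf182. Neither of these genes overlapped between 10 and 12 weeks, and their log2 fold changes were 1.21 ± 0.22 and 1.15 ± 0.21 (SE).

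The other 6 named increases were those of the glycosyltransferase B3gnt7 (log2 fold change 1.83), the proprotein convertase Pcsk5 (1.44), the prostaglandin-degrading enzyme Hpgd (1.30), the RING finger gene Lonrf3 (1.28), the aminopeptidase Xpnpep2 (1.52) and the BMP antagonist Grem1 (2.40). All 10 named increases stayed DEGs in each of the 15 alternative fits, the 6 fits that left out a single mouse included. Pcsk5 was highest in 12-week replicate 1, at 6.12 CPM against 2.74 and 2.83 CPM in the other 12-week mice, and Grem1 in 12-week replicate 2, at 8.89 CPM against 2.20 and 3.74 CPM.

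Among the named decreases, Msln (chromosome 17, 25748614 to 25754327), which encodes the surface protein mesothelin of the mesothelium, was at 27.96, 37.3 and 50.03 CPM at 10 weeks and 14.1, 23.02 and 16.7 CPM at 12 weeks, with no overlap and a log2 fold change of -1.10 ± 0.25 (SE). Its mean was already lower at each age than at the one before, from 149 CPM at 4 weeks to 90.2 and 46.1 CPM at 6 and 8 weeks. Mt3, a metallothionein, was at 3.47, 5.12 and 2.62 CPM at 10 weeks and 1.85, 1.504 and 1.54 CPM at 12 weeks (-1.20 ± 0.26, SE). The remaining 8 were Cyp46a1, a cholesterol hydroxylase (-0.98), the transcription factor gene Zbtb16 (-0.76), the syntrophin gene Sntg2 (-0.87), the gasdermin gene Gsdma (-0.74), the protocadherin gene Pcdhgb1 (-0.71), Lrrc10b (-0.72), Cd164l2 (-0.60) and Asphd1 (-0.59). Lrrc10b, Pcdhgb1, Cd164l2 and Asphd1 were no longer DEGs without 10-week replicate 3, the last 2 also not without 12-week replicate 3. Cd164l2 was lost too with library totals, the replicate block and the leukocyte covariate, and Asphd1 with DESeq2 size factors, library totals, DESeq2 and the leukocyte covariate.

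**Figure D2:**
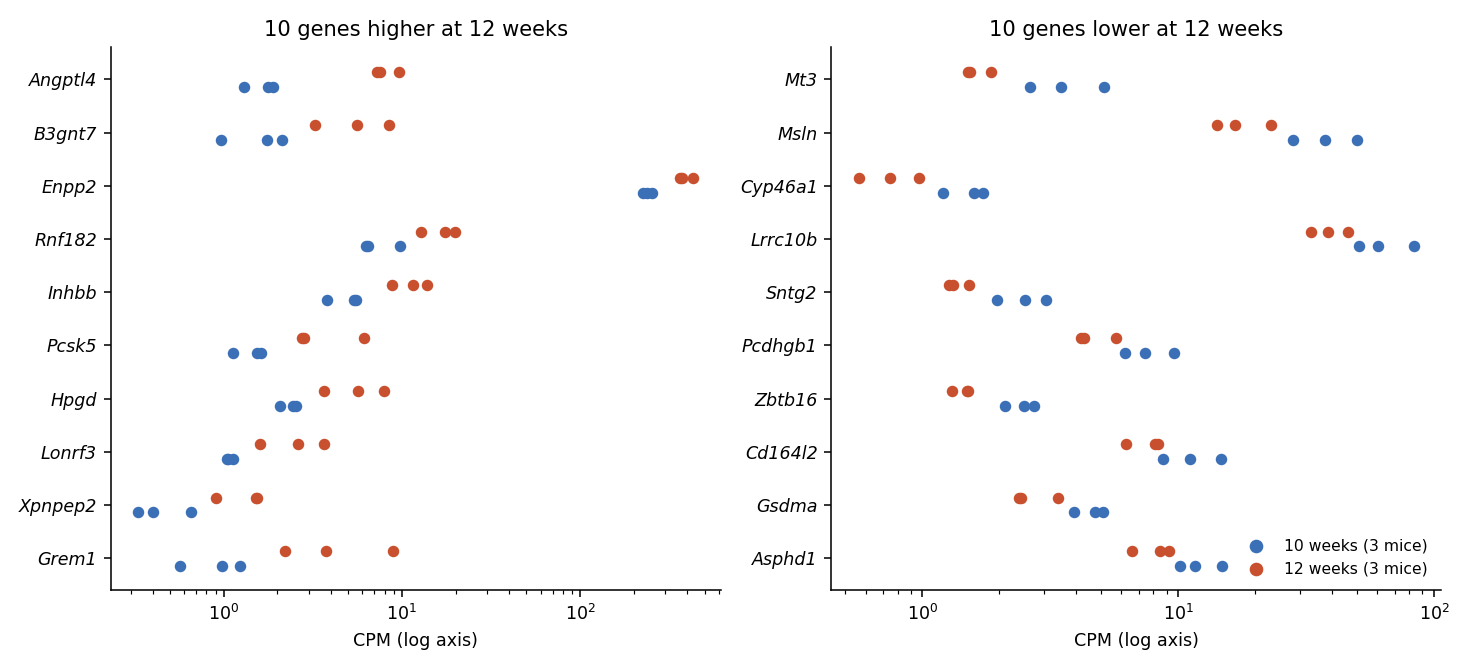
CPM on a log axis of the 10 named genes higher (left) and the 10 lower (right) at 12 weeks; each point is 1 mouse, blue for 10 weeks and red for 12 weeks. In all 20 genes the 3 mice of one age lie apart from the 3 of the other, as the rule for naming them required.

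Most blood endothelial genes had slightly higher levels at 12 weeks, and none was a DEG (edgeR quasi-likelihood test; Cldn5 was past the fold threshold, with an unadjusted p of 0.0543). The mean log2 CPM of the list was 4.90, 5.105 and 4.73 at 10 weeks and 5.08, 5.25 and 5.18 at 12 weeks, so the ages overlapped. Of 16 genes tested, 15 had a higher level, against 49.5% of all genes tested, and 7 did not overlap between the ages, against 4.42% of all genes. The median log2 fold change was 0.24, against -0.0020 over all genes tested. Pecam1 (CD31), the junctional adhesion molecule of endothelium, was at 150, 154 and 113 CPM at 10 weeks and 164, 180 and 189 CPM at 12 weeks. Its log2 fold change was 0.36 ± 0.10 (SE), with an unadjusted p of 0.00341 and an adjusted p of 0.577 (edgeR quasi-likelihood test). The other 6 without overlap were Cdh5 (VE-cadherin, 0.30), the guidance receptor Robo4 (0.30), the receptor kinase Tie1 (0.19), the transcription factor Erg (0.28), the sialomucin Emcn (0.17) and the tight junction gene Cldn5 (0.87).

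Not every endothelial gene shared this. Kdr, the main receptor for VEGF, was at 132, 143 and 144 CPM at 10 weeks and 134, 157 and 137 CPM at 12 weeks, a log2 fold change of 0.03 with a 95% interval from -0.17 to 0.23. Plvap, which builds the diaphragms of endocrine capillaries, was at 196, 241 and 199 CPM against 236, 229 and 236 CPM (0.14, 95% interval from -0.04 to 0.32). Among the 9 ligands and regulators of vessel growth none was a DEG (edgeR quasi-likelihood test) and the median was 0.05, but without 12-week replicate 1, 8 were higher and 2 were DEGs; Vegfa, the ligand of Kdr, differed by 0.05 with all mice. On the length-scaled TPM level, Plvap was the highest blood endothelial gene at 12 weeks, at 296 ± 21.6 TPM (SD, n = 3), followed by Pecam1 at 104 ± 13.5 TPM, with no overlap of their spreads. Without 10-week replicate 3, 14 of the 16 genes were still higher and the median was 0.18; with the leukocyte level as a covariate, 15 were higher and the median was 0.24. In that fit 1 gene was a DEG, as also with library totals, the 6 mice alone, the exact test of edgeR, DESeq2, the replicate block, and without 12-week replicate 3 or both mice with intestinal genes.

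Among 11 genes of high endothelial venules, all 11 had a higher level at 12 weeks, 1 was a DEG (against 1.61% of all genes) and 2 did not overlap (against 4.42%). The DEG was Glycam1 (chromosome 15, 103562762 to 103565078), a mucin-like ligand of the lymphocyte homing receptor L-selectin. It was at 46.7, 79.1 and 21.9 CPM at 10 weeks and at 169, 271 and 231 CPM at 12 weeks, a 4.53-fold difference with a wide 95% interval from 1.12 to 18.3 (2.18 ± 0.93 on the log2 scale, SE). The edgeR quasi-likelihood test gave an unadjusted p = 0.0364 and an adjusted p = 0.640. The mean was 0.0267, 0.578 and 11.9 CPM at 4, 6 and 8 weeks, so Glycam1 was higher at each age than at the one before. Glycam1 lost its place among the DEGs in 7 of 15 alternative fits (DESeq2, the replicate block, and fits without 10-week replicate 1, 10-week replicate 3, 12-week replicate 2, 12-week replicate 3, or both mice with intestinal genes), while the exact test of edgeR gave it an adjusted p of 0.00663. Leaving out any single mouse left its log2 fold change between 1.82 and 2.70.

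The other genes of these venules differed less. Chst4, a sulfotransferase that builds the L-selectin ligand, was at 3.04, 4.72 and 1.26 CPM against 6.54, 5.45 and 5.63 CPM with no overlap. The atypical chemokine receptor Ackr1 was at 5.14, 9.24 and 3.99 CPM against 9.14, 11.7 and 11.5 CPM. Madcam1, the ligand of the gut homing integrin, was high only in 12-week replicate 2, at 16.5 CPM against 6.09 and 4.97 CPM in its age group. The adhesion molecules Vcam1 (0.18) and Icam1 (0.21) and the selectin Sele (0.08) differed by less than their spread. Without 10-week replicate 3, 8 of the 11 genes were higher, the median went from 0.45 to 0.26 and none was a DEG (edgeR quasi-likelihood test). The same test called no DEG without 12-week replicate 2 or 12-week replicate 3. DEGs numbered 2 without 10-week replicate 2, with the 6 mice alone or with the leukocyte covariate, and 3 with the exact test of edgeR. With that covariate 9 of the 11 genes were higher and the median was 0.35.

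Lymphatic endothelial genes held 3 DEGs with higher levels among 7 tested, against 1.61% of all genes. Lyve1, the hyaluronan receptor of lymphatic endothelium that some macrophages also carry, was at 5.17, 8.04 and 6.35 CPM at 10 weeks and 7.74, 25 and 12.1 CPM at 12 weeks (log2 fold change 1.19 ± 0.31, SE). Ccl21a, the chemokine that draws T cells and dendritic cells through its receptor Ccr7, was at 9.73, 15.7 and 6.68 CPM against 22.6, 96.5 and 34.4 CPM (2.25 ± 0.65, SE). Ccl21a has near-identical copies in the mouse genome, and reads may be shared among them. Mmrn1, a matrix protein of lymphatic endothelium, was at 0.687, 1.71 and 0.797 CPM against 2.62, 6.32 and 3.11 CPM (1.89 ± 0.67, SE).

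In all 3 genes 12-week replicate 2 was the highest mouse, and it was also the one with high lymph node sinus genes. Without that mouse, Lyve1 (0.61) and Ccl21a (1.41) were still DEGs, Mmrn1 was not (nor without 10-week replicate 1), and 5 of the 7 genes were higher with a median of 0.36 in place of 0.49; the median was 0.77 without 10-week replicate 3. The lymphatic master regulator Prox1, which islet endocrine cells also express, differed by 0.09, and the receptor Flt4 by 0.16. The part of other tissue in 12-week replicate 2 in these values was not tested.

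**Figure D3:**
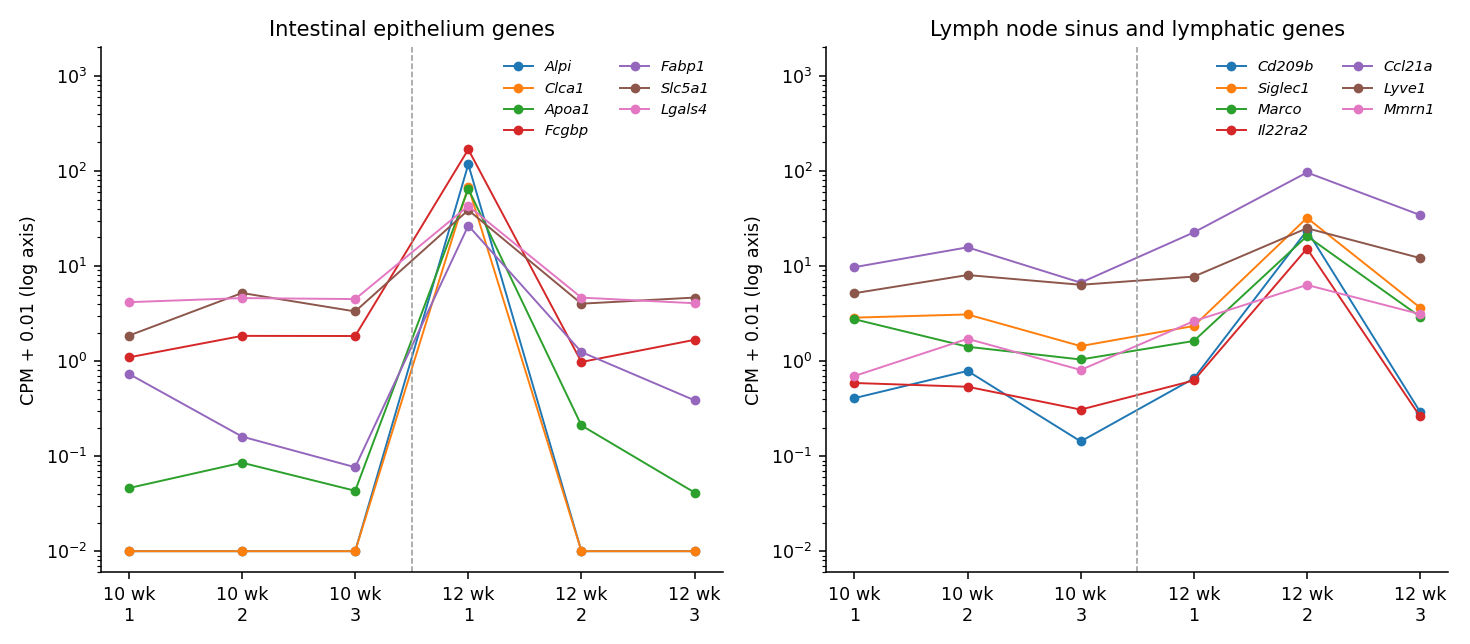
CPM + 0.01 on a log axis of 7 intestinal epithelium genes (left) and 7 lymph node sinus and lymphatic genes (right) in each of the 6 mice, 10 weeks left of the dashed line and 12 weeks right of it; lines join the values of a gene and imply no order of the mice. The intestinal genes peak in 12-week replicate 1, while Cd209b, Siglec1, Marco and Il22ra2 peak in 12-week replicate 2, where Ccl21a, Lyve1 and Mmrn1 are also highest.

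Stromal genes were higher at 12 weeks in nearly every list, mostly by less than the spread between mice. Among fibroblast genes, 12 of 12 were higher (against 49.5% of all genes tested), their median difference was 0.42 on the log2 scale, and 1 was a DEG (against 1.61%). There were 3 DEGs without 12-week replicate 1 or 10-week replicate 2, and 2 without 10-week replicate 1. The DEG with all mice was Fbln1, a secreted matrix glycoprotein, at 11.8, 13.9 and 6.45 CPM at 10 weeks and 16.9, 15.5 and 19.1 CPM at 12 weeks (0.68 ± 0.23, SE). Dcn, the collagen-binding proteoglycan decorin, was at 181, 159 and 79.6 CPM against 140, 206 and 260 CPM and overlapped (0.53 ± 0.39, SE). Pdgfra, the receptor that marks fibroblasts, overlapped as well, at 32.4, 29.0 and 12.8 CPM against 24.04, 32.7 and 41.4 CPM.

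Of 19 collagen and matrix genes, 18 were higher, 0 were DEGs and the median was 0.31. Col3a1, a fibrillar collagen of soft tissue, was at 464, 519 and 297 CPM against 494, 538 and 720 CPM (0.45 ± 0.26, SE). The basement membrane collagen Col4a1 was nearly level, with a log2 fold change of 0.04 and a 95% interval from -0.14 to 0.23. Pericyte and smooth muscle genes were higher in 12 of 12 cases with 0 DEGs and a median of 0.27, and among them the pericyte marker Rgs5 differed by 0.09 (95% interval from -0.12 to 0.31). The 2 counts of 0 DEGs came from the edgeR quasi-likelihood test, by which the smallest unadjusted p in these lists was 0.0898 for the collagens and 0.119 for the pericytes.

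10-week replicate 3 was the lowest mouse in these lists, and the medians were lower without it. They were 0.22 for fibroblasts (10 of 12 higher, Fbln1 no longer a DEG), 0.12 for collagens (15 of 19 higher) and 0.07 for pericytes and smooth muscle (10 of 12 higher). The same mouse was the lowest in leukocyte genes, and whether a lower share of infiltrate in that library moved the stromal lists was not tested. With the leukocyte level as a covariate the medians were 0.37, 0.24 and 0.22, and without 12-week replicate 3 they were 0.28, 0.16 and 0.18. DEGs among the collagens numbered 2 without 10-week replicate 1, and 1 without 12-week replicate 1 or with the exact test of edgeR. The pericyte and smooth muscle genes held 1 DEG without 12-week replicate 2.

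Stromal genes of lymph node type were higher in 10 of 11 cases with a median of 0.45, and 2 were DEGs (against 1.61% of all genes), Ccl21a and Grem1. Both were highest in 12-week replicate 2, the mouse with high lymph node sinus genes, and without it 10 of 11 were higher, 2 were DEGs and the median was 0.31. Leaving out 10-week replicate 3, 8 of the 11 were higher and the median was 0.15, and with the leukocyte level as a covariate 9 were higher and the median was 0.27. Grem1, which marks fibroblastic reticular cells, was at 0.977, 1.23 and 0.565 CPM at 10 weeks and 2.20, 8.89 and 3.74 CPM at 12 weeks (2.40 ± 0.58, SE). The chemokine genes Ccl19 and Cxcl13, by contrast, overlapped, with log2 fold changes of 0.23 and 0.05. Ccl19 was at 69.5, 67.1 and 28.7 CPM against 60.4, 57.0 and 76.5 CPM. Cr2, a receptor of B cells and follicular dendritic cells, was at 43.9, 17.3 and 12.1 CPM against 28.7, 70.6 and 58.4 CPM and overlapped (1.11 ± 0.53, SE).

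Mesothelial genes did not go one way. Of 6 tested, 3 were DEGs with higher levels (against 1.61% of all genes), Upk3b (1.51), Lrrn4 (2.57) and Krt19 (0.91), and 1 with a lower level (against 0.562%), Msln. Upk3b and Lrrn4 were low throughout, at most 2.48 CPM, and were highest in 12-week replicate 3. Krt19, a keratin that ducts and intestinal epithelium also express, was highest in 12-week replicate 1, at 18.8 CPM against 6.12 and 9.90 CPM. Of these 3 none was a DEG without 10-week replicate 3, and Msln still was. Upk3b was lost in 8 of the 15 alternative fits (no filter, DESeq2, the replicate block and the fits without any one mouse other than 12-week replicate 1), and Lrrn4 in 4 (DESeq2 and the fits without 10-week replicate 2, 10-week replicate 3 or 12-week replicate 3).

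**Figure D4:**
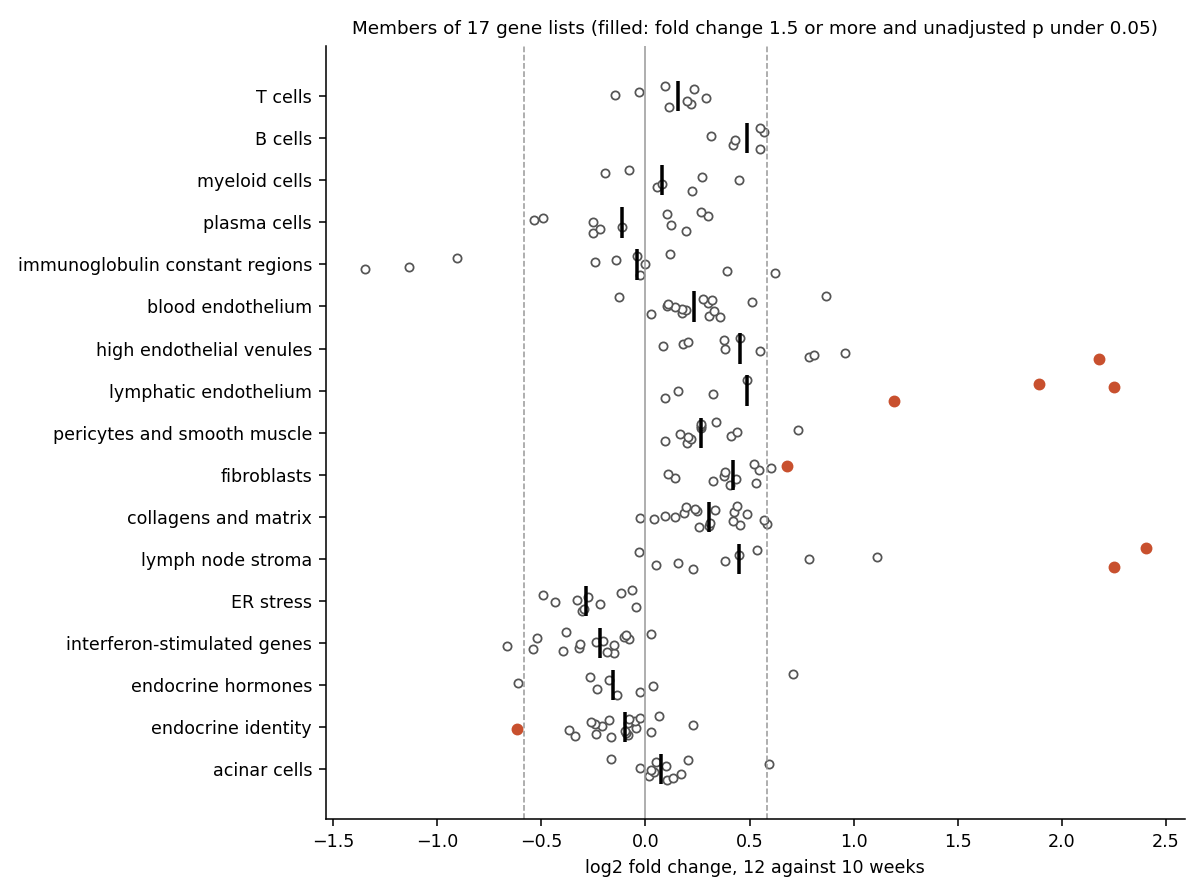
Log2 fold change, 12 against 10 weeks, of every tested gene of 17 lists; each circle is a gene, filled where it met the DEG threshold, short bars are list medians and dashed lines mark a 1.5-fold difference. Medians are above 0 in the vascular and stromal lists and below 0 in the ER stress, interferon-stimulated and endocrine lists, and filled circles are few.

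With all mice, no plasma cell gene was a DEG between the ages. Of 12 genes, 11 were tested, 5 were higher and 6 lower, and the median was -0.11 (edgeR quasi-likelihood test; smallest unadjusted p 0.00901). Jchain, the joining chain of secreted IgM and IgA, was at 353, 231 and 75.1 CPM at 10 weeks and 126, 261 and 167 CPM at 12 weeks. The surface marker Sdc1 (CD138) was at 11.4, 12.6 and 7.01 CPM against 11.6, 13.1 and 10.8 CPM. Both overlapped, and their log2 fold changes were -0.25 ± 0.87 and 0.19 ± 0.23 (SE). Tnfrsf17 (BCMA), a defining plasma cell receptor, was too low to test, with 13, 16 and 2 counts at 10 weeks and 4, 5 and 9 at 12 weeks.

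In this list only Derl3 and Xbp1 did not overlap (2 of 11 tested), and both were lower at 12 weeks, against 5.4% of all genes tested. Derl3, a factor of ER-associated degradation, was at 10.8, 14.5 and 10.7 CPM against 10.4, 7.79 and 6.66 CPM (-0.54). Xbp1, the transcription factor of the unfolded protein response, was at 248, 243 and 277 CPM against 241, 226 and 192 CPM (-0.22). Xbp1 is also expressed by beta cells and acinar cells.

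Among 11 tested immunoglobulin constant regions, 3 were higher and 8 lower, 0 were DEGs (edgeR quasi-likelihood test; smallest unadjusted p 0.262) and the median was -0.04. Igkc, the kappa light chain, was at 1076, 706 and 249 CPM at 10 weeks and 461, 792 and 585 CPM at 12 weeks. Ighm, the IgM heavy chain, was at 1296, 999 and 406 CPM against 679, 1182 and 788 CPM, and Igha, the IgA heavy chain, at 120, 90.4 and 35.3 CPM against 74.4, 68.3 and 64.6 CPM. In these 3 genes every 12-week mouse lay within the range of the 10-week mice.

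The widest spread was in the IgG subclasses. Ighg2b was at 628, 175 and 37.6 CPM at 10 weeks and 57.1, 122 and 151 CPM at 12 weeks, so 10-week replicate 1 alone held more than any other mouse by over 3 times. Without it the log2 fold change of Ighg2b went from -1.35 to 0.04. Ighg3 ranged from 2.21 CPM in 12-week replicate 2 to 77.3 CPM in 10-week replicate 1. On the TPM level at 12 weeks, Igkc (2899 ± 780 TPM, SD, n = 3) and Ighm (1175 ± 336 TPM) led, followed by Iglc2 (122 ± 29.2 TPM), Ighg2b (105 ± 50.6 TPM), Ighd (104 ± 30.6 TPM), Ighg2c (88.9 ± 55.1 TPM), Ighg3 (83.0 ± 67.9 TPM) and Igha (65.0 ± 2.26 TPM). Igkc and Ighm lay apart by more than their SDs, while each neighbour from Iglc2 to Igha differed by less. Reads may be shared between the constant regions of near-identical sequence.

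Without 10-week replicate 3, the mouse with the fewest leukocyte transcripts, 11 of 12 plasma cell genes and 10 of 11 constant regions were lower at 12 weeks, with medians of -0.25 and -0.43. Without 12-week replicate 1, 5 of 12 and 6 of 11 were higher, with medians of -0.09 and 0.02. In both of these fits 1 plasma cell gene was a DEG with a lower level. Without 10-week replicate 1, 8 of 11 plasma cell genes were higher (median 0.27), 2 others were DEGs with lower levels, and 9 of 11 constant regions were higher (median 0.35). The direction of both lists thus turned with single mice. B cell genes were higher in 6 of 6 cases (median 0.49, 0 DEGs, smallest unadjusted p 0.227), and in 6 of 6 also without 10-week replicate 3 (median 0.23) or 10-week replicate 1 (median 0.93).

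Immunoglobulin variable segments, counted here per segment and not per B cell clone, went both ways. Of 348 annotated segments 144 were tested, 73 were higher, 71 lower, 11 were DEGs upward (against 1.61% of all genes tested) and 11 downward (against 0.562%). Their summed level was 1250, 804 and 297 CPM at 10 weeks and 497, 898 and 663 CPM at 12 weeks. The most abundant segment differed in each mouse: Ighv2-2, Ighv4-1 and Igkv1-110 at 10 weeks and Igkv8-24, Igkv4-53 and Igkv8-16 at 12 weeks. Ighv2-2 alone made up 12.7% of the variable segment CPM of 10-week replicate 1, at 159 CPM against 1.56 and 11.7 CPM in its age group. None of the T cell receptor variable segments was a DEG.

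**Figure D5:**
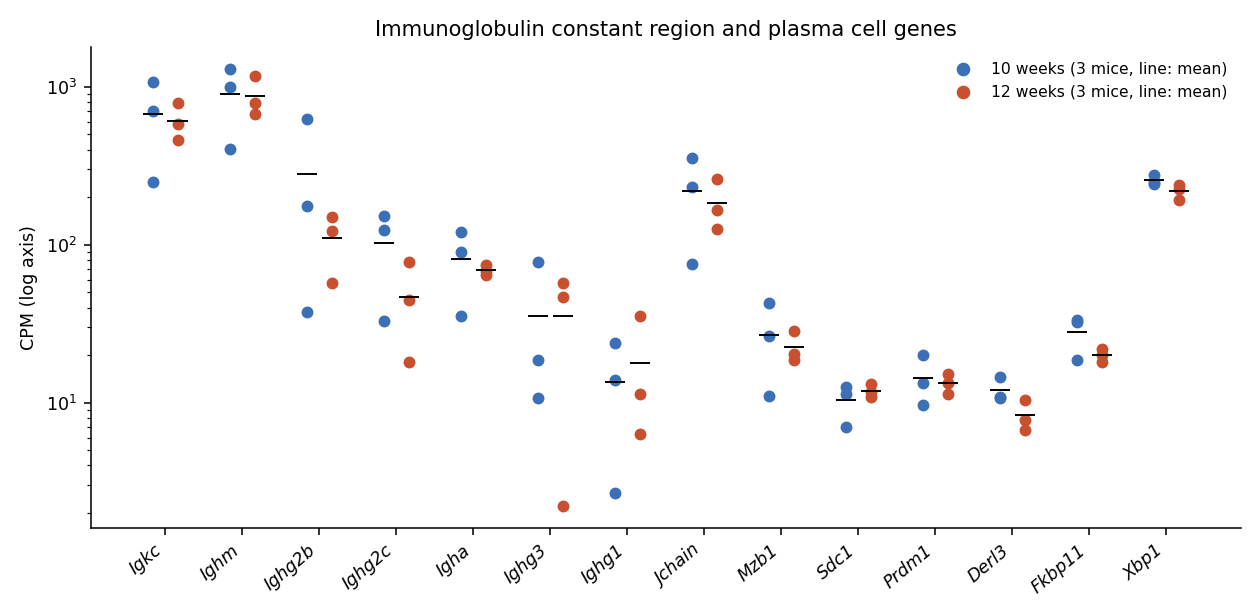
CPM on a log axis of 7 immunoglobulin constant region and 7 plasma cell genes; points are single mice, blue for 10 weeks and red for 12 weeks, and lines are means of 3 mice. The ages overlap in every gene but Derl3 and Xbp1, and the IgG subclasses spread most between mice.

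Genes of the ER stress response were lower at 12 weeks throughout the list. Of 10 genes, 10 were lower and 7 did not overlap between the ages, against 5.4% of all genes tested, with a median log2 fold change of -0.29. None reached the fold threshold of a DEG (edgeR quasi-likelihood test; smallest unadjusted p 0.00257, adjusted p 0.577), and the range was from -0.49 to -0.04. Sdf2l1, an ER chaperone cofactor, was at 138, 139 and 149 CPM at 10 weeks and 118, 100 and 84.4 CPM at 12 weeks. Hspa5 (BiP), the main ER chaperone, was at 1614, 1498 and 1737 CPM against 1470, 1349 and 1105 CPM (-0.31). Dnajb9, its J-domain partner, was at 300, 276 and 323 CPM against 266, 231 and 169 CPM (-0.43), and Herpud1, a membrane protein of ER-associated degradation, at 181, 148 and 166 CPM against 138, 128 and 128 CPM (-0.33).

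The 12-week mice were low and the 10-week mice high in each of these 4, with 12-week replicate 3 lowest or equal lowest. The ER chaperone Hsp90b1 (-0.06), the transcription factor Atf4 (-0.04) and the pseudokinase Trib3 (-0.12) overlapped. The mean log2 CPM of the list was 7.46, 7.29 and 7.45 at 10 weeks and 7.29, 7.11 and 7.00 at 12 weeks. At the earlier ages it was 7.33 ± 0.14 at 4 weeks, 7.15 ± 0.17 at 6 weeks and 7.28 ± 0.16 at 8 weeks (SD, n = 3). Leaving out 10-week replicate 3, 9 of 10 were lower (median -0.25), and without 12-week replicate 1, 10 of 10 (-0.34), of which 1 was then a DEG. No difference was detected in Ins2 transcripts: the 95% interval of the Ins2 fold change was 0.739 to 1.31. Whether the ER stress genes moved with insulin production was not tested.

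Promoters of genes of this list are shown where they hold an ER stress response element, the sequence bound by Atf6 with NF-Y. In RefSeq promoters of build GRCm38.p6 (250 bases before to 50 after the start site), all 10 genes had an entry. The element ERSE, searched on both strands as CCAAT and CCACG with any 9 bases between, was in 2 of them, against 39 of 32851 promoters (0.119%). The element ERSE-II, searched on both strands as ATTGG and CCACG with any 1 base between, was in 1 of them, against 12 (0.0365%), and the letters of both elements do not overlap in these windows. Capitals mark the element with 20 bases on each side in the direction of the gene. A match describes letters only and says nothing of binding in these islets. Hsp90b1, which carries 2 elements, had overlapping ages, whereas Hspa5 and Herpud1 did not overlap.
Hspa5, chr2:34772005-34772063, plus strand: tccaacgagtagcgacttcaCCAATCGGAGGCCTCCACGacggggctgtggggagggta
Hsp90b1, chr10:86705618-86705676, minus strand: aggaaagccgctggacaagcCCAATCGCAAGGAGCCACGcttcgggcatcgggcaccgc
Hsp90b1, chr10:86705513-86705571, minus strand, element in the opposite direction: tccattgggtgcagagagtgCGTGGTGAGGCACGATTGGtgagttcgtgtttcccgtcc
Herpud1, chr8:94386357-94386407, plus strand, ERSE-II: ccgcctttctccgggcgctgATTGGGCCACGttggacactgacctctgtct

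Endocrine identity genes were slightly lower. Of 20 identity genes, 17 were lower with a median of -0.10. The alpha cell hormone gene Gcg overlapped, at 21520, 22480 and 22680 CPM against 16570, 23040 and 17050 CPM (-0.23, 95% interval from -0.54 to 0.07). With 10-week replicate 3 left out, the mouse with the highest endocrine level, 9 of the 20 identity genes were lower and the median was 0.02.

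Interferon-stimulated genes were lower in 15 of 16 cases with a median of -0.22, and 0 were DEGs (edgeR quasi-likelihood test; smallest unadjusted p 0.184). The direction turned with single mice. The chemokine Cxcl10 was at 185, 112 and 81.9 CPM at 10 weeks and 117, 37.0 and 110 CPM at 12 weeks. Without 12-week replicate 2, 7 of 16 were lower and the median was 0.03, and without 10-week replicate 1, 8 of 16 were lower and the median was 0.0075. With the leukocyte level as a covariate all 16 were lower, the median was -0.46 and 2 were DEGs.

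The heat shock genes Hspa1a and Hspa1b were DEGs (1.15 ± 0.33 and 1.10 ± 0.36, SE), but their ages overlapped. Hspa1a was at 85.2, 33.5 and 40.7 CPM against 95.7, 84.6 and 173 CPM, with 10-week replicate 1 above 12-week replicate 2. Without 12-week replicate 3, Hspa1b was no longer a DEG (0.71). These neighbouring genes are near-identical in sequence, so their reads may be shared. Among the immediate-early genes of the same list Fos, Jun and Egr1 differed by 0.27, 0.33 and 0.14, none a DEG.

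Cells of the exocrine pancreas varied more between mice than between ages. The acinar list was at a mean log2 CPM of 9.59, 8.22 and 6.68 at 10 weeks and 9.39, 8.74 and 7.32 at 12 weeks, with 0 of 12 genes a DEG (smallest unadjusted p 0.548). The most abundant acinar gene was Ctrb1. Of 10 duct genes 1 was a DEG (against 1.61% of all genes tested), Krt19. Krt19 was lost with the 6 mice alone and without 10-week replicate 1, 10-week replicate 3, 12-week replicate 1 or both mice with intestinal genes. Duct DEGs numbered 2 with no filter, DESeq2 or the leukocyte covariate, and without 10-week replicate 2 or 12-week replicate 2. The acinar median was 0.08 and lay between -0.43 and 1.03 when single mice were left out. Proliferation genes (12 tested, median -0.04, smallest unadjusted p 0.618) held 0 DEGs (edgeR quasi-likelihood test), as did 8 hedgehog pathway genes (median 0.40, smallest unadjusted p 0.0719) and 8 Schwann cell genes (median 0.24, smallest unadjusted p 0.142). The proliferation median was -0.29 without 10-week replicate 3 and 0.14 without 10-week replicate 1, and was also above 0 without 10-week replicate 2 (0.03) or 12-week replicate 2 (0.08). The hedgehog median was 0.18 without 10-week replicate 3 and 0.21 without 12-week replicate 3, with 1 DEG without 10-week replicate 2 or 12-week replicate 1, and the Schwann cell median was 0.11 without 12-week replicate 2. The hepatocyte gene Fgb was a DEG at a level below 1 CPM in all 6 mice (-0.97), and was lost in 7 of 15 alternative fits, those without 10-week replicate 3, 12-week replicate 1 or 12-week replicate 3 included.

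Intestinal transcripts stood out in a single mouse, 12-week replicate 1. Of 30 intestinal epithelium genes 14 passed the filter, and 5 were DEGs with higher levels (against 1.61% of all genes): Fabp1, Slc5a1, Fcgbp, Lgals4 and Lyz1. Fcgbp, a mucus protein of goblet cells, was at 1.08, 1.83 and 1.83 CPM at 10 weeks and at 169, 0.969 and 1.67 CPM at 12 weeks. Fabp1, the fatty acid carrier of enterocytes and liver, was at 0.723, 0.151 and 0.0664 CPM against 26.7, 1.24 and 0.377 CPM. Slc5a1, the intestinal sodium-glucose transporter, was at 1.84, 5.20 and 3.32 CPM against 38.8, 4.01 and 4.65 CPM, and Lgals4 at 4.16, 4.595 and 4.49 CPM against 42.9, 4.64 and 4.05 CPM. In Fcgbp, Slc5a1 and Lgals4 a single mouse was high and the other two 12-week mice lay at or near the 10-week level. Fabp1 was also above every 10-week mouse in 12-week replicate 2, and without 12-week replicate 1 its log2 fold change was 1.39 and it was no DEG. Lyz1, the lysozyme of Paneth cells with a close myeloid paralog, differed from them: it was highest in 12-week replicate 2, at 26.2 CPM against 8.04 and 11.9 CPM, and was no DEG without that mouse, 12-week replicate 3, 10-week replicate 2 or 10-week replicate 3. Fabp1 was likewise lost without 10-week replicate 2 or 10-week replicate 3, and Slc5a1 without 10-week replicate 1. Fabp1 and Lyz1 were lost with the replicate block too, Fcgbp with DESeq2 and Lgals4 with the 6 mice alone.

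The 16 intestinal genes that failed the filter showed the same mouse more sharply. They made up 0.0573% of the counts of 12-week replicate 1 (95% Wilson interval from 0.0564% to 0.0582%, counting error only). The brush border phosphatase Alpi had 3623 counts there and 0 in the other 5 mice, sucrase-isomaltase (Sis) 1903 and 0, and the goblet cell gene Clca1 2107 and 0. Apoa1 had 2004 counts there and from 1 to 6 in the others. Outside the list, 57 further untested genes had at least 100 counts in this mouse and at most 10 in each of the other 5, among them the phosphatase Akp3 with 6283 counts and Apob, the chylomicron protein, with 2047.

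Among the 266 DEGs with higher levels, 52 were over 3 times higher in 12-week replicate 1 than in both other 12-week mice, against 13 for replicate 2 and 3 for replicate 3. The 52 included the brush border genes Mgam, Cdhr2, Cdhr5 and Myo1a, the peptide transporter Slc15a1, the lipid genes Mttp and Npc1l1 and the serotonin genes Tph1 and Slc6a4. Slc6a4 was still a DEG without 12-week replicate 1. It stood at 0.40 and 0.60 CPM in the other 12-week mice against 0.17 to 0.33 CPM at 10 weeks. Without that mouse there were 408 DEGs, of which 205 were among the 359. Fcgbp then had a log2 fold change of -0.27 and Lgals4 of -0.02, and of 13 tested intestinal genes 1 was a DEG. The medians of the blood endothelial, fibroblast and lymphatic lists without it were 0.29, 0.56 and 0.80, in place of 0.24, 0.42 and 0.49, so these lists were higher at 12 weeks also without the intestinal library.

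The step from 10 to 12 weeks was set against the step from 6 to 8 weeks, with which it shares no mouse. No gene differed between the 2 steps at an adjusted p of 0.05 (0% of 16554, edgeR quasi-likelihood test, smallest adjusted p 0.765). At an unadjusted p under 0.05 there were 1005 genes, where 828 are given by the threshold itself. In the same contrast the B cell chemokine Cxcl13 had a difference of -4.74 (unadjusted p 0.000142), as its mean was 0.861 CPM at 6 weeks, 22.2 CPM at 8 weeks, 77.9 CPM at 10 weeks and 80.7 CPM at 12 weeks. Ighm (-4.41, unadjusted p 0.00405) and Igkc (-3.84, 0.00869) had differences of the same sign, and each had an adjusted p of 0.765. For endothelial genes no difference between the steps was detected: it was -0.06 ± 0.14 for Pecam1 and 0.02 ± 0.15 for Cdh5 (SE). The mean log2 CPM of the blood endothelial list differed by 0.23 from 6 to 8, by 0.19 from 8 to 10 and by 0.26 from 10 to 12 weeks. That of the lymphatic list differed by 0.32, 0.14 and 0.85, and at 12 weeks it was 3.29, 4.42 and 3.76 in replicates 1 to 3 against 2.82, 3.24 and 2.88 at 10 weeks, so 12-week replicate 2 added most to the last step. The steps of the 2 lists were not tested against each other. For the immunoglobulin constant regions the steps were 3.24, 2.28 and -0.11.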

How the data were processed

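The authors trimmed, aligned and counted paired reads of polyA libraries in CLC Genomics Workbench with default settings and deposited, for each of the 15 mice, the total count per gene, which is a raw count without normalization. The deposited TPM values were scaled by the authors for gene length and library size, and were used only to order genes by level. Per the labels the build is mm10, the annotation version is not given in the sources used here, and whether the counting used strand is not stated. The 30 remaining columns of sample values (other count types) were not used.

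Counts were analysed with edgeR 4.0.16 in R 4.3.3: genes kept by filterByExpr over the 5 ages, TMM normalization, 1 mean per age over all 15 mice, quasi-likelihood test of 12 against 10 weeks, and the difference of that step from 8 against 6 weeks. CPM values use TMM-normalised sizes, log2 CPM values a prior count of 2, and a list level is the mean log2 CPM of its tested genes. Alternatives were other size factors, no filter, the 6 mice alone, the exact test of edgeR, DESeq2 1.42.0, a replicate block, a leukocyte covariate, a prior count of 0.5 and leaving out single mice. The tests were checked on simulated data. Replicates of one age differed beyond counting noise, and each was counted as 1 sample.

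The comparison, the 34 gene lists and the named genes were chosen with earlier results of these data known. The rule named 10 genes per direction, the DEGs of smallest p without overlap and with at least 1 CPM in the higher group (since no gene passed the adjusted threshold), every DEG of a list, and fixed defining markers. Gene models and variable segments were counted but not named, and some list genes are not reported here. The genes of 3 further lists and single genes of the closing section were chosen after their values were seen.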

Additional observations from a re-analysis of the deposited data

Results flagged for a closer look

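The 16 intestinal epithelium genes that did not pass the filter on low counts lie outside every test of the report, yet in 2 of the 15 mice they gave a signal far above the highest 10-week mouse (25 counts). In 12-week replicate 1 they summed to 16480 counts, with all 16 genes above the floor of 3 counts. In 6-week replicate 2 they summed to 2723 counts, 0.00654% of its total (95% Wilson interval from 0.00630% to 0.00679%), with 14 genes above the floor. The other 13 mice held from 5 to 26 counts, and the highest of these differed from the highest 10-week mouse by less than counting error.

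The same genes were high in both mice. Of the 12 untested genes with at least 100 counts in 12-week replicate 1, the CPM in 6-week replicate 2 was from 9.08% to 21.2% of that in 12-week replicate 1, with a median of 11.2%. Alpi had 461 counts in 6-week replicate 2 and Sis 270, against 0 in the other 13 mice. The Paneth cell gene Defa24 went the other way, with 204 counts in 6-week replicate 2 and 18 in 12-week replicate 1. The mean log2 CPM of the endocrine identity list in 12-week replicate 1 was 8.14, inside the range of the other 5 mice compared (7.90 to 8.47), although Chgb was at 2585 CPM there against 1303 to 1665 CPM in the other 5. The source of the intestinal transcripts was not tested.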

How the results depend on the processing

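DEGs numbered 359 as reported and between 281 (replicate block) and 413 (leukocyte covariate) under the other size factors, the 6 mice alone, the exact test of edgeR and DESeq2, but 619 with no filter on low counts, which tested 22813 genes. Genes past an adjusted p of 0.05 numbered 0 in every quasi-likelihood fit, 7 by the exact test of edgeR and 12 by DESeq2. Without a single mouse the DEGs numbered from 312 to 544, the highest without 10-week replicate 1, and shared from 171 to 241 genes with the 359. In all 6 such fits 70 genes stayed DEGs, 52 higher and 18 lower. Without both mice with intestinal genes there were 407, of which 198 were shared. The step contrast gave 0 genes at an adjusted p under 0.05 in each fit run. Same-numbered mice did not deviate together (correlations -0.06, -0.15 and -0.25), so no sign of pairing by number was seen. With 3 mice per age these correlations cannot exclude such pairing. The replicate block made 281 DEGs and 0 adjusted calls. Depth limits genes near 0.1 CPM, where 3 counts are the floor. The fit without both intestinal mice, the genes kept in all 6 fits and the list counts per fit were added after the data were seen, and the cause of each change was not tested.

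With the leukocyte covariate the sign turned for Ptprc (-0.071), Cd3e (-0.28), Cd4 (-0.083), Ccl19 (-0.081) and Ins2 (0.015), none a DEG. Without both intestinal mice it turned for Fcgbp (-0.27), Lgals4 (-0.02), Igkc (0.02), Ighm (0.13), Sst (-0.13), Vil1 (-0.26), Cela2a (-0.37) and Cpa1 (-0.37). Log2 fold changes that changed sign when a single mouse was left out ranged for Fcgbp from -0.27 to 5.74, Lgals4 from -0.022 to 2.43, Ptprc from -0.12 to 0.50, Cd3e from -0.20 to 0.37, Cd8a from -0.47 to 0.18, Jchain from -0.66 to 0.27, Sdc1 from -0.022 to 0.36, Igkc from -0.54 to 0.36, Ighm from -0.38 to 0.33, Igha from -0.61 to 0.14, Ighg1 from -0.62 to 1.09, Ighg2b from -1.87 to 0.045, Kdr from -0.048 to 0.069, Rgs5 from -0.015 to 0.16, Col1a1 from -0.029 to 0.43, Col4a1 from -0.032 to 0.10, Ccl19 from -0.079 to 0.43, Cxcl13 from -0.21 to 0.44, Ins2 from -0.17 to 0.080, Sst from -0.13 to 0.16, Vil1 from -0.26 to 0.50, Cela2a from -0.37 to 1.08, Cpa1 from -0.37 to 1.15, Ifng from -0.57 to 0.12, and Chga from -0.39 to 0.0048.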

Other observations

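Some further gene groups, drawn up after their values were seen and therefore without a test of the group, described more of what was higher at 12 weeks. Genes of fatty acid use, of which Angptl4 is one, were higher in 12 of 14 cases with a median log2 fold change of 0.32. Cpt1a, a DEG, which carries fatty acids into mitochondria, was at 38.3, 36.1 and 35.1 CPM at 10 weeks and 66.5, 46.6 and 58.8 CPM at 12 weeks. These ages did not overlap, but the mean of Cpt1a was already 55.9 ± 13.7 CPM (SD, n = 3) at 6 weeks and 45.5 CPM at 8 weeks. Cpt1a was not among the 70 genes that stayed DEGs in all 6 fits that left out a single mouse. The mean log2 CPM of the group was 4.105, 4.055 and 3.98 at 10 weeks and 4.59, 4.48 and 4.49 at 12 weeks. Pdk4 (0.15) and Hadha (-0.04), of the same group, overlapped.

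Genes that glucocorticoids induce went both ways. Of 13 genes 11 were higher (against 49.5% of all genes tested), 3 of them DEGs (Tsc22d3, Cebpd and Errfi1, against 1.61%), while Zbtb16 was a DEG with a lower level (against 0.562%). Tsc22d3 (GILZ) was at 39.6, 36.8 and 39.5 CPM at 10 weeks and 41.2, 92.6 and 116 CPM at 12 weeks, so 12-week replicate 1 lay close to the 10-week mice and the other two were above. Fkbp5, another gene of this response, overlapped (-0.13), as did the metallothioneins Mt1 (0.23) and Mt2 (0.13). Sik1 (25.2, 18.3 and 14.8 against 25.4, 43.2 and 55.8 CPM) and Txnip (186, 199 and 186 against 203, 318 and 338 CPM) were DEGs too, and in both 12-week replicate 1 again lay closest to the 10-week mice. Sik1, Tsc22d3 and Cebpd stayed DEGs in all 6 fits that left out a single mouse, but Txnip and Errfi1 did not.

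Lymph node sinus genes were higher in 12 of 12 cases and 8 were DEGs, against 1.61% of all genes tested. They were picked for these values, so the counts cannot serve as a test. Among the 8 were Ccl21a, Lyve1 and Mmrn1, the lymphatic DEGs given above. The mean log2 CPM of the sinus list was 4.01 in 12-week replicate 2 and between 0.77 and 1.79 in the other 5 mice. Marco, a scavenger receptor of sinus and marginal zone macrophages, was at 20.7 CPM in that mouse against 1.03 to 2.92 CPM, and Il22ra2, which encodes the soluble binding protein of IL-22, at 15.3 CPM against 0.251 to 0.616 CPM. Without 12-week replicate 2, 10 of the 12 were higher, 2 were DEGs and the median was 0.27. The source of these transcripts was not tested. Slc40a1, the iron exporter ferroportin, was at 25.5, 35.1 and 45.1 CPM at 10 weeks and 95.1, 55.7 and 51.1 CPM at 12 weeks, a DEG that did not overlap (0.93 ± 0.26, SE). Its mean was 54.2, 52.9 and 55.9 CPM at 4, 6 and 8 weeks, so the 10-week level was the lowest, and of the 12-week mice only replicate 1, the one with intestinal transcripts, stood above all 3 earlier means.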
